A study of Danio rerio with 6 samples.

Results

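Neurotransmitter receptor genes were examined in cells sorted from the heads of zebrafish larvae. The genes were taken by symbol alone: subunits of the ionotropic glutamate, GABA-A, glycine, nicotinic and 5-HT3 receptors, and the metabotropic glutamate, GABA-B, muscarinic, dopamine, alpha-adrenergic and serotonin receptors that couple to G proteins. This gave 125 of the 32469 gene identifiers in the count files, 71 of them ion channel subunits and 54 G protein-coupled receptors. By transmitter, 34 belong to glutamate, 21 to GABA, 7 to glycine, 26 to acetylcholine, 10 to dopamine, 9 to noradrenaline and 18 to serotonin. The symbol table writes 88 of them in capitals, and 42 share their symbol with another member, so identifiers are added where a symbol is ambiguous.

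The gallein group held 3 samples from embryos raised in 100 µM gallein, a small molecule that blocks G protein beta-gamma signalling. The control group held 3 samples from embryos raised in the solvent DMSO. Exposure began between 16 and 20 hours post fertilization and went on to day 5, with fresh medium every 24 hours. All 6 samples carried OMP-Gal4;UAS-GCaMP1.6, so a green calcium sensor is made where the OMP promoter is active, which is mainly in mature olfactory sensory neurons. Dissociated head cells were sorted for green fluorescence. The labels call the samples biological replicates and do not say how many larvae each one held.

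Transmitter receptors are either ion channels, which open when a transmitter binds, or receptors that act through G proteins. Receptors coupled to the Gi/o class release beta-gamma dimers that open potassium channels and inhibit calcium channels. In rodents, GABA-B and dopamine D2 receptors on the axon terminals of olfactory sensory neurons reduce transmitter release. Larval heads also hold brain, retina and muscle, where glutamate, GABA, glycine and nicotinic receptors are abundant.

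The libraries held 30822664 to 38101548 gene counts in gallein and 34845638 to 40295728 in controls. Levels are given as CPM, counts per 1000000 after scaling by TMM factors. CPM was not divided by transcript length, so levels are compared between samples and not between genes. OMP itself was at 4.79, 0.193 and 4.99 CPM in gallein replicates 1 to 3, against 13.4, 6.97 and 7.81 CPM in the controls. The 10 markers of ciliated olfactory neurons, OMP among them, summed to 232, 158 and 134 CPM in gallein and 253, 166 and 2223 CPM in controls. RNA of other tissues was present in every library. The summed level of 16 genes of neurons in general was 934 to 3022 CPM in gallein and 1412 to 1889 CPM in controls. For 23 skeletal muscle genes it was 1702 to 7126 CPM in gallein and 970 to 5812 CPM in controls. For 20 photoreceptor genes it was 592 to 22439 CPM in gallein and 2185 to 15330 CPM in controls, and for 8 genes of the inner retina 24.1 to 92.6 CPM in gallein and 34.8 to 175 CPM in controls. In such bulk samples fewer cells of a type and less RNA per cell cannot be told apart.

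The comparison of gallein with control asked how far transcripts of these receptors differ when beta-gamma signalling is blocked during development. Of the 125 genes, 90 had enough counts for edgeR's quasi-likelihood test, 32 had counts but fell under its filter, and 3 (CHRNA4, HTR5A ENSDARG00000038869 and htr1fb) had no count in any library. No receptor gene passed an adjusted p of 0.05 (0 of 90), where the percentage called among all 18271 genes tested was 0, and the smallest adjusted p among receptors was 0.756. At an unadjusted p under 0.05 there were 8 receptor genes, 5 lower and 3 higher in gallein. That is 8.89% of the 90, beside 6.5% of all genes tested. The lower ones made up 5.56%, beside 2.47% of all genes, and the higher ones 3.33%, beside 4.03%. DESeq2's Wald test, which called 0.514% of all genes tested, called 0 receptor genes, and limma-voom called 0 genes in all.

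The log2 fold changes of the tested receptor genes, gallein over control, had a median of -0.30, with 52 negative and 38 positive. Over all genes tested the median was 0.07, and 47.3% were negative. The receptor values ran from -7.24 to 2.94, with a median standard error of 1.10. In 11 receptor genes every gallein sample was below every control, and in 0 genes every gallein sample was above. The 11 are 12.2% of the 90, where 5.22% of all genes tested had every gallein sample below the controls and 3.81% had every one above. Some marker lists had lower medians than the receptors. The median was -1.23 for ciliated olfactory neurons (10 of 10 negative, 3 with every gallein sample below the controls). It was -1.30 for the inner retina (6 of 8 negative) and -0.69 for photoreceptors (14 of 18 negative, 1 with every gallein sample below). The other marker lists had medians above that of the receptors. The part of these cell types in the receptor median was not tested. Among genes with at least 10 counts in every library, 5 of 51 receptor genes (9.80%) were below in every gallein sample, against 3.53% of 12447 genes. Their median was -0.04, against 0.10 for all genes under that filter. A gene can pass the usual filter through the group where it is high, so these counts describe the genes tested and not the family as a whole.

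**Figure D1:**
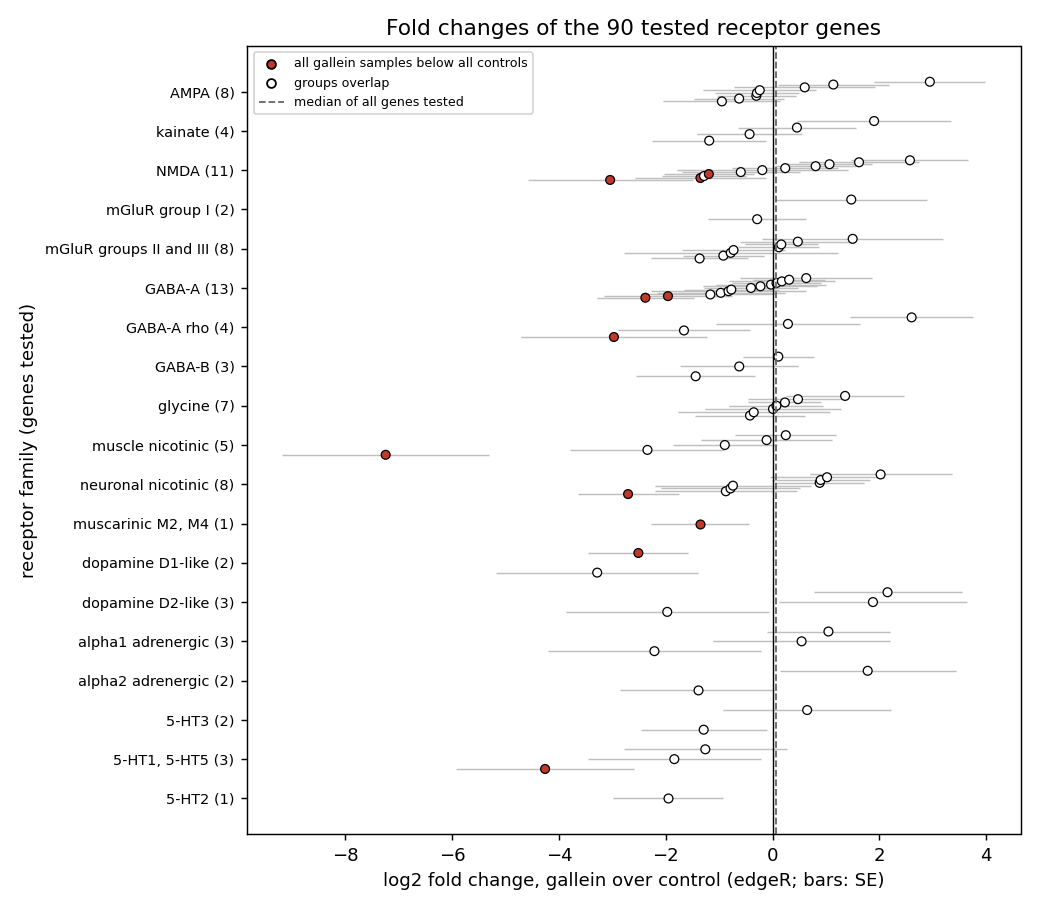
Log2 fold change of each tested receptor gene, gallein over control, by family, with its standard error as a grey bar. Filled points mark the 11 genes with every gallein sample below the controls, and the dashed line is the median of all genes tested, 0.07.

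The summed receptor transcripts differed more between libraries of the same group than between the groups. Over the 125 genes they came to 373, 698 and 1059 CPM in gallein and 460, 533 and 737 CPM in controls. GRIN1 ENSDARG00000025728 alone made up 49.9% of the sum in gallein replicate 3, against 5.86% to 15.9% in the other 5 libraries. Without that gene the sums were 351, 587 and 530 CPM in gallein and 430, 464 and 621 CPM in controls, so the groups overlapped either way. Without TMM factors, the 125 genes held 0.0257%, 0.0446% and 0.127% of the gene counts in gallein. In controls they held 0.0480%, 0.0772% and 0.0918%. By that share gallein replicates 1 and 2 were below every control and replicate 3 was above.

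**Figure D2:**
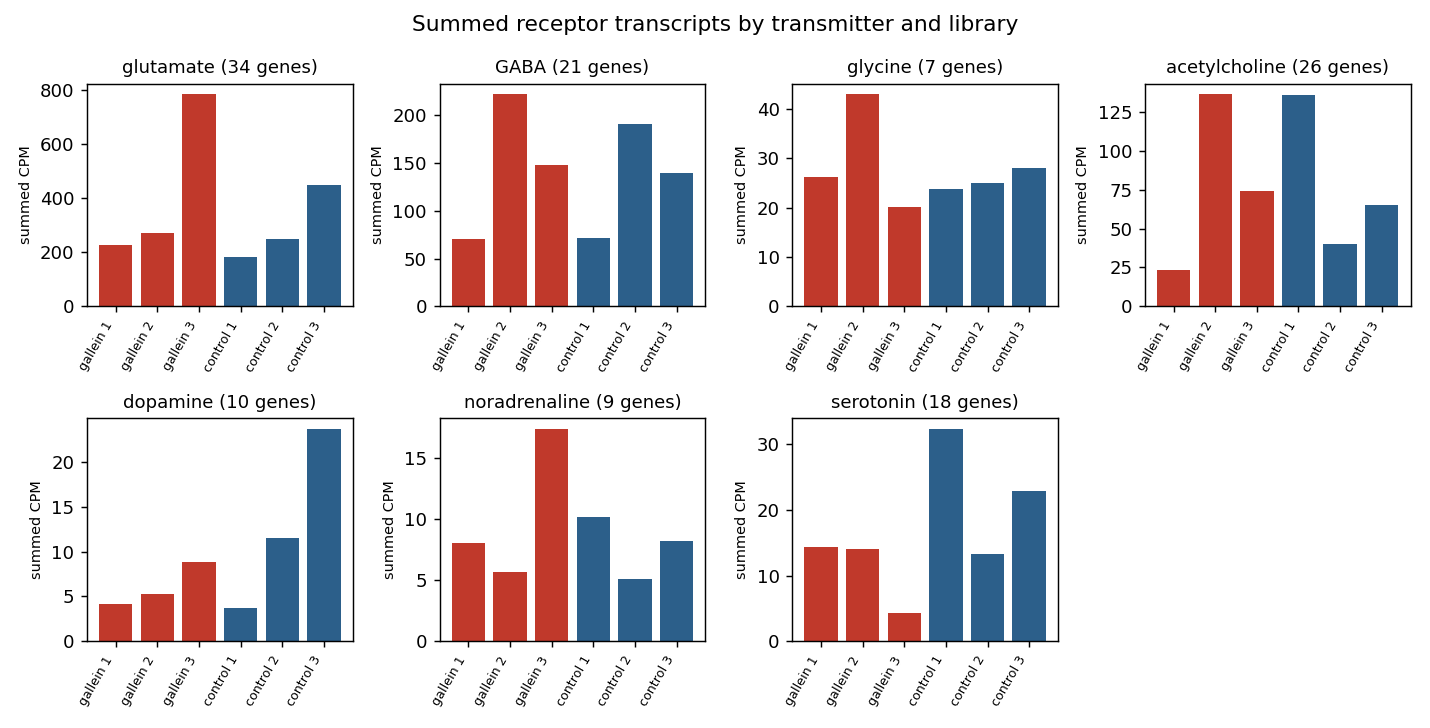
Summed CPM of the receptor genes of each transmitter in the 3 gallein (red) and 3 control (blue) libraries, as bars from 0. The groups overlap for all 7 transmitters, and gallein replicate 3 stands out for glutamate at 786 CPM.

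Fewer receptor genes were detected in gallein replicates 1 and 2 than in any control. After every library had been thinned to 30822664 gene counts, 74, 76 and 96 of the 125 had 5 or more counts in gallein replicates 1 to 3, against 92, 105 and 99 in the controls. Gallein replicate 3 was within the control range. Over all genes the same count was 17437, 16597 and 18895 in gallein and 18840, 20738 and 18850 in controls, so gallein replicates 1 and 2 had the fewest genes there as well.

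**Figure D3:**
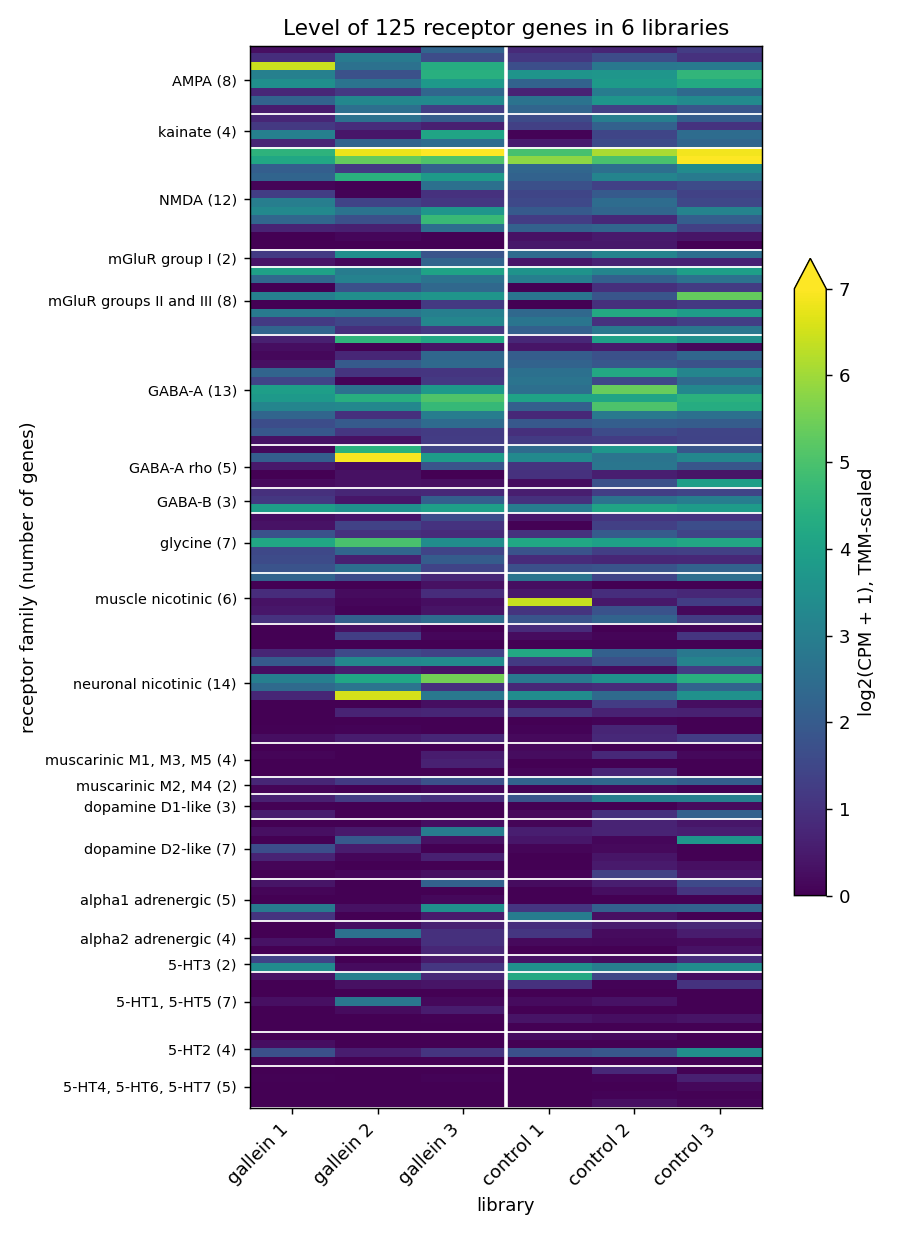
Level of each of the 125 receptor genes as log2(CPM + 1) in the 3 gallein and 3 control libraries, grouped by family (white lines), with genes in symbol order. A bright cell alone in its row is a gene high in 1 library, such as CHRND in control replicate 1 at 84.3 CPM.

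Glutamate receptors carry fast excitation through AMPA, kainate and NMDA channels, and metabotropic receptors modulate release. Their median log2 fold change was -0.24 across the 33 genes tested, 18 negative and 15 positive, and 0 passed the threshold. All 12 NMDA subunit genes had counts and 11 were tested, with a median of -0.19. In 3 of the 11 (27.3%) every gallein sample was below the controls, beside 5.22% of all genes tested. In 0 of them every gallein sample was above, beside 3.81% of all genes. The rest had overlapping groups, and some of those were high in 1 library.

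GRIN2A ENSDARG00000034493, a glutamate-binding subunit that shapes channel kinetics, was at 3.23, 1.25 and 3.50 CPM in gallein replicates 1 to 3 and at 3.98, 4.90 and 9.43 CPM in controls. Every gallein sample was lower, though gallein replicate 3 and control replicate 1 were close (log2 fold change -1.19 ± 0.84 SE, adjusted p = 0.826 by edgeR). GRIN2C ENSDARG00000077560, a related subunit known in mammals mainly from cerebellum, was at 1.41, 0.0482 and 1.00 CPM in gallein and 1.74, 2.96 and 1.61 CPM in controls, again without overlap (-1.35 ± 1.22, edgeR adjusted p = 0.869). The related genes had positive values and overlapping groups. They were GRIN2C ENSDARG00000078149 (0.24 ± 0.99) and grin2ab (0.81 ± 0.76). The gene grin2ab was at 8.71, 5.35 and 11.7 CPM in gallein and 2.97, 3.99 and 7.79 CPM in controls. For grin3a, which encodes a glycine-binding subunit that lowers calcium flow through the channel, 0, 2 and 1 reads were counted in gallein against 11, 25 and 14 in controls. The ratio of gallein to control was 0.101, with an exact 95% interval of 0.0202 to 0.313 that covers counting error and not the spread between libraries. The fit gave grin3a -3.04 ± 1.54 (edgeR adjusted p = 0.779), and the gene passed the filter only through the controls. The gene grin2da, another glutamate-binding subunit, had the other direction, at 3.99, 2.26 and 25.9 CPM in gallein and 1.39, 0.736 and 3.30 CPM in controls. Gallein replicate 3 was the highest and replicate 2 was within the control range (2.57 ± 1.10, edgeR unadjusted p = 0.0399, adjusted p = 0.756). Without gallein replicate 3 the log2 fold change was 0.79.

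GRIN1, the subunit that every NMDA receptor needs, has 2 genes in the table, and their fold changes had opposite signs. ENSDARG00000025728 was at 21.9, 111 and 529 CPM in gallein and 30.3, 68.7 and 117 CPM in controls (1.62 ± 1.13, edgeR adjusted p = 0.822), and without gallein replicate 3 the log2 fold change was -0.12. ENSDARG00000027828 was at 17.0, 39.9 and 32.6 CPM in gallein and 55.0, 30.7 and 132 CPM in controls (-1.28 ± 0.79, edgeR adjusted p = 0.799). The groups overlapped for either gene. The neuron marker ELAVL4 was also highest in gallein replicate 3, at 539 CPM against 58.0 and 73.0 CPM in the other gallein libraries and 56.5 to 84.2 CPM in controls, and its part in the GRIN1 level was not tested.

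Among the 8 AMPA subunit genes, all of them tested, 1 had an unadjusted p under 0.05. GRIA2 ENSDARG00000052765 encodes the subunit that keeps calcium out of AMPA channels, and it was at 86.2, 5.06 and 19.3 CPM in gallein against 2.19, 5.94 and 6.22 CPM in controls. Gallein replicates 1 and 3 were above the controls and replicate 2 was within their range. Its log2 fold change was 2.94 ± 1.04 (edgeR unadjusted p = 0.0171, adjusted p = 0.756), and 1.35 without gallein replicate 1. The other gene of that name, ENSDARG00000070173, was at 7.34, 2.36 and 20.4 CPM in gallein and 11.4, 11.8 and 23.4 CPM in controls (-0.63 ± 0.85). The remaining 6 AMPA genes had log2 fold changes between -0.95 and 1.14. The 4 kainate subunit genes ran from -1.19 for GRIK1 ENSDARG00000069139 to 1.90 for GRIK3, and GRIK3 ranged from 0.337 to 16.1 CPM in gallein and from 0.0504 to 4.54 CPM in controls.

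The 8 receptors of metabotropic groups II and III couple to Gi/o and many sit on presynaptic terminals. They had a median log2 fold change of -0.31, with 4 negative and 4 positive. GRM2 ENSDARG00000004150, of group II, was among the more even receptor genes, at 15.1, 6.65 and 15.7 CPM in gallein and 11.1, 8.11 and 14.3 CPM in controls (0.16 ± 0.68). GRM4, a presynaptic group III receptor, was at 7.34, 10.02 and 11.7 CPM in gallein and 5.62, 2.62 and 40.0 CPM in controls. Its log2 fold change of -0.73 became 1.23 without control replicate 3. GRM6 ENSDARG00000025671, named for the receptor of ON bipolar cells in the retina, was at 6.20, 5.59 and 7.14 CPM in gallein and 4.18, 18.0 and 13.7 CPM in controls (-0.92 ± 0.75, edgeR adjusted p = 0.845). Control replicate 2, where it was highest, also had the highest sum of inner retina markers (175 CPM), and the part of this in the difference was not tested. GRM8 ENSDARG00000077654 had a log2 fold change of -1.37 ± 0.91, and the other GRM8 gene, ENSDARG00000076508, had 0.47 ± 1.07. The Gq-coupled receptor GRM5 was at 3.85 CPM in gallein replicate 3 and between 0.0963 and 0.599 CPM in the other 5 libraries.

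GABA receptors, the main inhibitory receptors of the forebrain, had a median log2 fold change of -0.51 across the 20 genes tested, 13 negative and 7 positive, and 0 passed the threshold. The 13 GABA-A subunit genes were all tested, with a median of -0.40. In GABRA6 ENSDARG00000075058 and GABRB2 every gallein sample was below the controls, which is 15.4% of the 13, beside 5.22% of all genes tested. This GABRA6 gene, of the alpha6 subunit typical of cerebellar granule cells in mammals, was at 3.77, 1.06 and 1.11 CPM in gallein and 4.99, 17.8 and 8.18 CPM in controls. Its log2 fold change was -2.38 ± 0.91 (edgeR unadjusted p = 0.0244, adjusted p = 0.756) and lay between -3.24 and -1.74 with 1 library left out. GABRB2, a beta subunit that helps form the GABA binding site, was at 1.71, 0.0482 and 1.22 CPM in gallein and 5.47, 1.85 and 4.36 CPM in controls (-1.96 ± 1.19, edgeR adjusted p = 0.793). In the other 11 subunit genes the groups overlapped. Among them was the other GABRA6 gene, ENSDARG00000058736, at 0.228, 2.99 and 4.26 CPM in gallein and 3.68, 2.76 and 2.33 CPM in controls (-0.23 ± 1.07). GABRD, the delta subunit of receptors outside synapses, was at 12.6, 20.0 and 32.7 CPM in gallein and 15.8, 15.9 and 21.1 CPM in controls (0.31 ± 0.67, and -0.11 without gallein replicate 3).

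The rho subunits form GABA channels best known from retinal bipolar cells. The gene gabrr3a had 0, 5 and 0 counts in gallein and 39, 30 and 14 in controls, so every gallein sample was lower (-2.97 ± 1.74, edgeR adjusted p = 0.787). GABRR2 ENSDARG00000014057 was high in 1 library, at 3.23, 122 and 13.6 CPM in gallein and 9.02, 5.49 and 8.37 CPM in controls. Its log2 fold change of 2.60 ± 1.15 (edgeR unadjusted p = 0.0462, adjusted p = 0.761) was 0.15 without gallein replicate 2. The untested gene gabrr3b was high in a control library, with 4, 5 and 8 counts in gallein and 7, 135 and 610 in controls.

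The GABA-B receptor is a pair of subunits, GABBR1 that binds GABA and GABBR2 that couples to Gi/o. The gene gabbr1b was at 13.9, 10.6 and 14.3 CPM in gallein and 6.62, 16.1 and 13.4 CPM in controls. The groups overlapped, and the log2 fold change of 0.11 ± 0.67 (edgeR adjusted p = 0.990) lay between -0.17 and 0.37 with 1 library left out. GABBR2 was at 1.18, 0.337 and 3.23 CPM in gallein and 0.957, 5.24 and 6.75 CPM in controls (-1.44 ± 1.11, edgeR adjusted p = 0.835). Here control replicate 1 was below gallein replicates 1 and 3. GABBR1 ENSDARG00000018967, the other GABBR1 gene, had a log2 fold change of -0.62 ± 1.11.

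Glycine receptors, the inhibitory channels of brainstem, spinal cord and retina, had a median log2 fold change of 0.07 across the 7 genes tested, 2 negative and 5 positive, the same to 2 decimals as that of all genes. GLRB encodes the beta subunit that ties the receptor to its scaffold, and ENSDARG00000052769 was at 16.9, 30.8 and 9.80 CPM in gallein and 16.9, 14.7 and 17.4 CPM in controls. The controls were close to each other and the gallein samples lay on either side of them (0.23 ± 0.68, edgeR adjusted p = 0.972), and the log2 fold change was -0.29 without gallein replicate 2. Of the alpha subunits, which bind glycine, glra4a had the highest log2 fold change, 1.36 ± 1.10, and GLRA3 the lowest, -0.42 ± 1.03 (0.08 without control replicate 2).

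Acetylcholine receptors had a median log2 fold change of -0.76 across the 14 genes tested of 26, 9 negative and 5 positive, and 0 passed the threshold. The smallest p of any receptor gene belonged to CHRND, the delta subunit of the nicotinic receptor at the neuromuscular junction. It was at 0.266, 0.0963 and 0.190 CPM in gallein and 84.3, 0.359 and 1.43 CPM in controls, with 3348 counts in control replicate 1 and at most 62 in any other library. Every gallein sample was lower. The log2 fold change of -7.24 ± 1.93 (edgeR unadjusted p = 0.00355, adjusted p = 0.756) was -2.24 without control replicate 1.

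The other subunits of the muscle receptor had no such excess in control replicate 1. CHRNA1, which binds acetylcholine, was at 3.69, 2.02 and 0.679 CPM in gallein and 5.44, 1.64 and 4.79 CPM in controls (-0.89 ± 0.97). CHRNG, the gamma subunit of the embryonic form, was at 0.989, 3.47 and 4.59 CPM in gallein and 2.54, 3.71 and 1.36 CPM in controls (0.25 ± 0.95). CHRNE, the epsilon subunit of the adult form, was highest in control replicate 2, at 2.40 CPM against 0.0482 to 1.06 CPM elsewhere. The summed skeletal muscle markers were 3222, 7126 and 1702 CPM in gallein and 5812, 4307 and 970 CPM in controls. Control replicate 1 had the highest sum of the controls and was below gallein replicate 2. The part of muscle content in the CHRND level was not tested.

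Among neuronal nicotinic genes, CHRNA5, an accessory subunit that does not bind acetylcholine by itself, was at 0.647, 1.93 and 1.55 CPM in gallein and 17.6, 3.44 and 5.92 CPM in controls. Every gallein sample was lower, and the log2 fold change was -2.71 ± 0.95 (edgeR unadjusted p = 0.0162, adjusted p = 0.756), or -1.75 without control replicate 1. CHRNB2, which pairs with alpha subunits in most brain nicotinic receptors, was at 7.15, 16.8 and 44.3 CPM in gallein and 6.17, 10.4 and 20.4 CPM in controls (0.88 ± 0.83, and -0.05 without gallein replicate 3). CHRNB3 ENSDARG00000052764, another accessory subunit, was at 0.685, 93.1 and 5.94 CPM in gallein and 9.57, 4.40 and 10.6 CPM in controls. Gallein replicate 2 stood apart, and the log2 fold change of 2.02 was -1.30 without that library. The untested gene chrna10a, a subunit known from hair cells, had 0, 0 and 7 counts in gallein and 8, 81 and 9 in controls, with every gallein sample lower in CPM.

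Of the muscarinic receptors, which act through G proteins, 1 of 6 was tested. CHRM4, a Gi/o-coupled receptor, was at 0.685, 1.30 and 2.36 CPM in gallein and 3.68, 4.19 and 3.27 CPM in controls. The controls were close together and every gallein sample was lower. The log2 fold change of -1.35 ± 0.92 (edgeR adjusted p = 0.810) lay between -1.91 and -1.02 with 1 library left out. CHRM5 had 0 counts in every gallein library and 3, 40 and 0 in controls, so its control counts came almost wholly from control replicate 2.

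**Figure D4:**
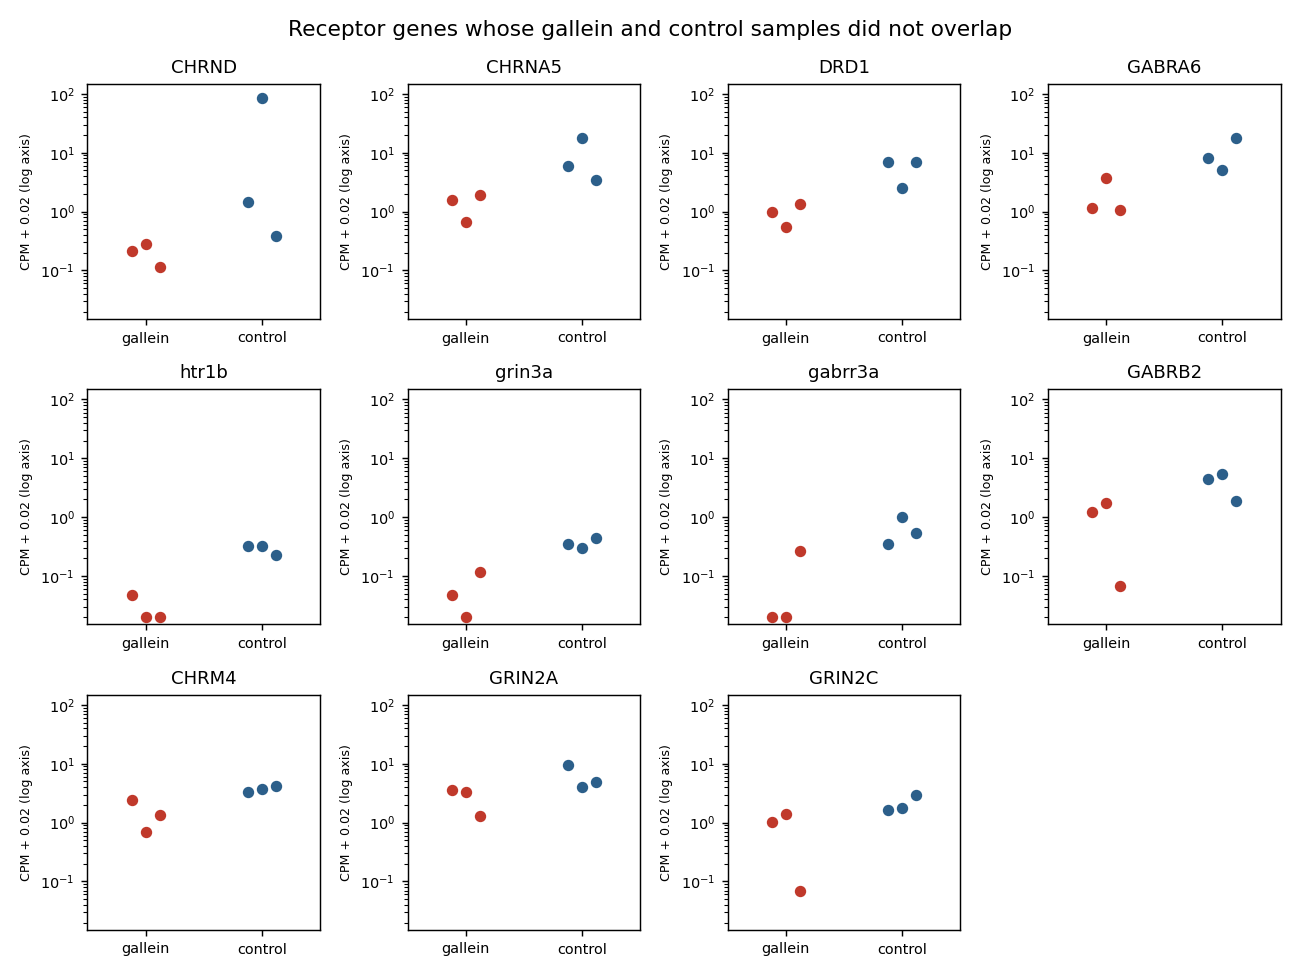
CPM (plus 0.02, log axis) of the 11 tested receptor genes whose 3 gallein samples (left, red) all lay below the 3 controls (right, blue), ordered by edgeR p. The controls of htr1b and CHRM4 are close together, while CHRND has 1 control at 84.3 CPM.

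Dopamine receptors were sparse, with 5 of 10 genes tested, 3 negative and 2 positive. DRD1, the Gs-coupled receptor that raises cyclic AMP, was at 0.533, 1.35 and 0.977 CPM in gallein and 2.54, 6.85 and 6.94 CPM in controls. Every gallein sample was lower, with 14, 28 and 36 counts against 101, 400 and 301. The log2 fold change was -2.51 ± 0.93 (edgeR unadjusted p = 0.0218, adjusted p = 0.756) and lay between -2.84 and -2.23 with 1 library left out. A related gene, drd1a, was at 0.457, 0 and 0 CPM in gallein and 0.126, 0.959 and 3.43 CPM in controls, with overlapping groups (-3.28 ± 1.89). The inner retina markers, of a tissue where D1 receptors are also known, summed to 28.3, 92.6 and 24.1 CPM in gallein and 34.8, 175 and 48.8 CPM in controls. Their part in the DRD1 difference was not tested.

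The D2-like receptors, which couple to Gi/o, had values of either sign, and DRD2 and DRD3 turned on 1 library each. DRD2 ENSDARG00000056926 was at 0.228, 0.385 and 6.70 CPM in gallein and 0.504, 0.633 and 0.507 CPM in controls. Its log2 fold change of 2.15 ± 1.39 (edgeR adjusted p = 0.802) was -0.84 without gallein replicate 3. DRD3 was at 0, 2.89 and 0.244 CPM in gallein and 0.353, 0.0856 and 11.8 CPM in controls, and its -1.97 was 2.24 without control replicate 3. For drd4-rs there were 16, 2 and 20 counts in gallein and 0, 19 and 0 in controls (1.88 ± 1.76).

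Alpha-adrenergic receptors, which bind noradrenaline, had 5 of 9 genes tested, 2 negative and 3 positive, and in all 5 the groups overlapped. ADRA1D, a Gq-coupled receptor of smooth muscle and brain, was at 6.32, 0.241 and 10.2 CPM in gallein and 1.13, 3.41 and 3.57 CPM in controls (1.05 ± 1.14, edgeR adjusted p = 0.902). The gene adra1ab was highest in control replicate 1, at 6.67 CPM, and its log2 fold change of -2.21 was 2.13 without that library. ADRA2A, which couples to Gi/o, had a log2 fold change of -1.39 ± 1.47. ADRA2C, of the same class, was at 0, 5.06 and 0.977 CPM in gallein and 1.16, 0.154 and 0.438 CPM in controls. Its log2 fold change of 1.78 ± 1.65 was -0.24 without gallein replicate 2. The untested gene adra2da had 7, 3 and 35 counts in gallein and 5, 6 and 6 in controls, and was the 1 gene of the 125 with every gallein sample higher in CPM. Gallein replicate 2 was at 0.145 CPM and control replicate 3 at 0.138 CPM. The number of such genes was 0 with upper-quartile factors, spike-in totals, library size only or summed neuron markers as library size.

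Serotonin receptors had 6 of 18 genes tested, 5 negative and 1 positive, with a median log2 fold change of -1.56, and 0 passed the threshold. The gene htr1b, a Gi/o-coupled receptor that in mammals reduces release from serotonin terminals, had 0, 0 and 1 counts in gallein and 12, 12 and 13 in controls. The controls were even and every gallein sample was lower (edgeR unadjusted p = 0.0279, adjusted p = 0.756). The ratio of gallein to control was 0.0456, with an exact 95% counting interval of 0.00112 to 0.270. A receptor of the same class, HTR1A, was at 0.266, 7.32 and 0.706 CPM in gallein and 17.8, 1.76 and 0.207 CPM in controls. Its log2 fold change of -1.26 was 1.52 without control replicate 1.

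The gene htr2cl1, of the Gq-coupled 5-HT2 family, was at 2.24, 0.482 and 1.11 CPM in gallein and 2.24, 2.72 and 10.1 CPM in controls (-1.96 ± 1.03, edgeR adjusted p = 0.779). Gallein replicate 1 and control replicate 1 were level. HTR3B, a subunit of the serotonin-gated channel, was at 9.63, 0.145 and 1.14 CPM in gallein and 10.4, 6.78 and 9.57 CPM in controls. Gallein replicates 2 and 3 were below the controls and replicate 1 was among them (-1.29 ± 1.18, edgeR adjusted p = 0.872). HTR3A, which can form the channel alone, was at 1.67, 0 and 0.407 CPM in gallein and 0.277, 0.154 and 0.899 CPM in controls. The 5 genes of the Gs-coupled 5-HT4, 5-HT6 and 5-HT7 receptors had 0 to 2 counts each in the gallein libraries and 0 of them were tested. HTR4 had 44 of its 45 control counts in control replicate 2.

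By coupling, the 20 tested Gi/o-coupled receptors had a median log2 fold change of -0.76 (12 negative, 8 positive) and the 62 channel subunits -0.23. The lowest class was that of the Gs-coupled receptors, with DRD1 and drd1a as its 2 tested genes, both negative, and a median of -2.90. The 6 Gq-coupled receptors had 0.13, which was above the median of all genes except with summed neuron markers as library size, where it was lower by 0.38. Of the Gi/o-coupled genes CHRM4 and htr1b had groups that did not overlap, which is 2 of 20 or 10%, where 5.22% of all genes tested were lower in every gallein sample and 3.81% higher. Of these 2 genes, htr1b passed the filter only through the controls, with 0, 0 and 1 counts in gallein. The classes were not tested against each other. Relative to the median of all genes the Gi/o median was -0.83 with TMM factors and lay between -0.85 and -0.57 under the 5 other scalings. The scalings do not cover the weight of single libraries. Without control replicate 3 the 20 Gi/o genes had as many positive as negative log2 fold changes, with DRD3 at 2.24 and GRM4 at 1.23. The Gi/o median therefore rests in part on that library.

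Zebrafish carry 2 copies of many receptor genes, and the balance between 2 genes of the same symbol is a ratio within a library that no scaling changes. This comparison was chosen after the data had been seen. In 14 pairs both genes were tested, and in 6 of them the log2 fold changes had opposite signs (GABRR2, GRIA2, GRIN1, GRIN2B, GRIN2C and GRM8). For GRIA2 the count ratio of ENSDARG00000052765 to ENSDARG00000070173 was 11.7, 2.13 and 0.943 in gallein and 0.193, 0.503 and 0.267 in controls. Every gallein ratio was higher, by 3.28 on the log2 scale (two-sided exact permutation p = 0.1 with 3 samples a group, the smallest this design allows, and 0.6 adjusted over the 14 pairs). For GRIN1 the ratio of ENSDARG00000025728 to ENSDARG00000027828 was 1.29, 2.78 and 16.2 in gallein and 0.551, 2.24 and 0.881 in controls, and the groups overlapped (exact permutation p = 0.2, 0.6 adjusted). The GLRB pair was steadier, with 9, 7.66 and 5.78 in gallein and 6.88, 10.1 and 11.4 in controls. The sources used here do not say how reads that match both copies were counted, so the split within a pair is uncertain.

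**Figure D5:**
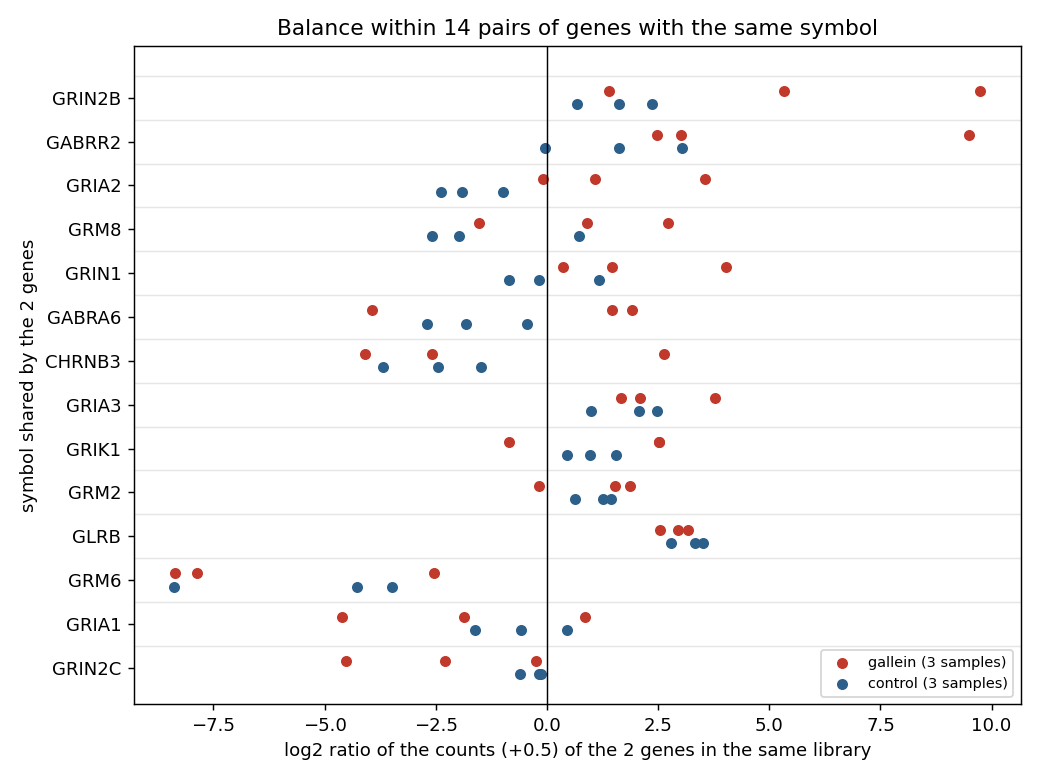
Log2 ratio of the counts (plus 0.5) of the 2 genes in each of 14 same-symbol pairs, the gene with the lower identifier number over the other, for 3 gallein (red, upper) and 3 control (blue, lower) samples. GRIA2 is the 1 pair whose groups do not overlap.

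Many receptor genes were high in 1 library, as were genes in general. In 21 of the 90 tested receptor genes (23.3%) more than 50% of the summed CPM of the 6 libraries came from 1 library, beside 23.5% of all genes tested. Gallein replicate 3 was that library for 7 of the 21, gallein replicate 2 and control replicates 1 and 3 for 4 each, and gallein replicate 1 and control replicate 2 for 1 each.

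Genes that build, place or feed the same synapses were read from lists of symbols, and 0 of their members passed the threshold. Scaffolds and auxiliary subunits of excitatory synapses had a median log2 fold change of -0.04 across the 37 genes tested (19 negative, 18 positive). In 5 of them (13.5%, against 5.22% of all genes tested) every gallein sample was below the controls, and in 0 above: CACNG5 ENSDARG00000039240, CACNG7 ENSDARG00000063006, CACNG8 ENSDARG00000070626, NETO1 ENSDARG00000068483 and DLGAP1 ENSDARG00000014280. Each of these symbols has another gene in the list, and in all 5 of those the groups overlapped. CACNG7 ENSDARG00000063006, an auxiliary subunit of AMPA receptors, was at 0.0380, 0.385 and 0.109 CPM in gallein and 3.50, 0.479 and 1.08 CPM in controls (-3.26 ± 1.42). Its namesake ENSDARG00000070624 was at 1.18, 6.55 and 2.33 CPM in gallein and 9.70, 3.71 and 0.115 CPM in controls (-0.43 ± 1.26). NETO1 ENSDARG00000068483, an auxiliary subunit of kainate receptors, was at 0.571, 0.0482 and 0.787 CPM in gallein and 2.42, 3.46 and 1.45 CPM in controls (-2.36 ± 1.22). The other NETO1 gene, ENSDARG00000071596, was at 1.86, 0.289 and 2.23 CPM in gallein and 1.44, 1.57 and 0.392 CPM in controls (0.37 ± 1.17).

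Scaffolds of inhibitory synapses had a median log2 fold change of 0.95 across the 12 genes tested, 2 negative and 10 positive. Their leading members were high in different libraries. GPHN, the gephyrin scaffold of glycine and GABA-A receptors, was at 0.533, 125 and 2.06 CPM in gallein and 3.35, 2.94 and 2.07 CPM in controls. The gene gabarapa, whose product binds GABA-A receptors and also serves autophagy, was at 176, 82.0 and 30.9 CPM in gallein and 30.5, 15.5 and 20.7 CPM in controls. Every gallein sample was higher, with replicate 3 close to control replicate 1 (2.11 ± 0.84, edgeR unadjusted p = 0.0292, adjusted p = 0.756). GABARAPL2, of the same autophagy family, was also higher in every gallein sample. These 2 genes are 16.7% of the 12 tested, beside 3.81% of all genes tested. In gallein replicate 2, GPHN, nlgn2b (107 CPM), SLC1A7 ENSDARG00000034940 (113 CPM), GABRR2 ENSDARG00000014057 and CHRNB3 ENSDARG00000052764 stood at their highest together, a set chosen after its values were seen. The inner retina sum there was 92.6 CPM, the highest of the gallein libraries. In control replicate 2 the inner retina sum was 175 CPM, and GPHN was at 2.94, GABRR2 at 5.49 and CHRNB3 at 4.40 CPM. The part of retinal cells in these levels was not tested.

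Enzymes of transmitter synthesis had a median log2 fold change of 0.38 across the 15 genes tested (6 negative, 9 positive), and transmitter transporters 0.39 across 26 (12 negative, 14 positive). Without gallein replicate 3 most of the tested genes of either list had negative log2 fold changes, so both positive medians rested on that library. GAD1 ENSDARG00000027419, which makes GABA, was at 16.7, 34.8 and 16.2 CPM in gallein and 24.7, 44.9 and 16.6 CPM in controls. GAD2, the other GABA-making enzyme, was at 21.7, 12.3 and 42.6 CPM in gallein and 7.88, 47.2 and 63.7 CPM in controls, and the groups overlapped for both. The glutamate transporter gene slc1a8b was at 0.799, 0.289 and 0.271 CPM in gallein and 2.14, 22.1 and 1.45 CPM in controls, with every gallein sample lower (-4.23 ± 1.28, edgeR unadjusted p = 0.00748, adjusted p = 0.756), and the log2 fold change was -1.98 without control replicate 2. It was the 1 transporter of 26 (3.85%) lower in every gallein sample, beside 5.22% of all genes tested. Another 1 (3.85%) was higher in every gallein sample, beside 3.81% of all genes.

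Genes for assembly and clustering of nicotinic receptors had a median log2 fold change of 0.21 across the 6 genes tested. ACHE, which breaks down acetylcholine, was at 29.3, 38.5 and 32.0 CPM in gallein and 25.3, 23.2 and 22.7 CPM in controls, without overlap although the log2 fold change was 0.49 ± 0.63. It was the 1 gene of the 6 (16.7%) with every gallein sample higher, beside 3.81% of all genes tested. GIRK potassium channels, opened by beta-gamma, had a median of 0.70 across the 4 genes tested. The highest was KCNJ3 ENSDARG00000062217, at 0.951, 687 and 29.0 CPM in gallein and 5.26, 4.90 and 5.99 CPM in controls (5.47 ± 1.82, edgeR adjusted p = 0.756). Gallein replicate 2 held most of its level, and without that library the log2 fold change was 1.48. Without gallein replicate 3 the log2 fold changes were 5.99 for this gene and -0.24 for KCNJ3 ENSDARG00000077165. Those of KCNJ6 and KCNJ9 were then -0.58 and -2.78, so the positive median of the GIRK channels rested in part on gallein replicate 3. Transmitter receptors outside the symbol rule had a median of -0.82 across the 16 genes tested (10 negative, 6 positive). P2RX3 ENSDARG00000010477, an ATP-gated channel of sensory neurons, was at 0.0380, 0.0482 and 0.271 CPM in gallein and 1.06, 4.28 and 1.18 CPM in controls, with every gallein sample lower (-4.10 ± 1.39, edgeR adjusted p = 0.756). The other P2RX3 gene, ENSDARG00000029718, was at 58.4, 0.626 and 4.67 CPM in gallein and 12.3, 6.50 and 296 CPM in controls, with overlapping groups (-2.31 ± 1.67, and 1.18 without control replicate 3).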

How the data were processed

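Poly(A)-selected RNA of 6 samples was sequenced. The authors deposited raw counts of reads for each gene, in 2 files a sample; TopHat2 2.0.4, HTSeq and the build Zv9 are named per the submitters' processing notes. The sources used here do not give the annotation release, counting mode, strand setting or meaning of the 2 files, so overlapping and antisense genes cannot be told apart. The 2 files differed by more than sampling noise (mean chi-square per gene 1.37 to 1.76, where sampling alone gives about 1). They were summed as 1 replicate. The 92 spike-in rows and 5 rows that name no gene stayed out of library sizes; the unnamed rows took 19.4% to 33.9% of a sample's counts. Symbols came from a table naming 20734 of the identifiers. Transcript lengths and sequences were not used here.

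The main test was that of edgeR 4.0.16 (R 4.3.3): TMM factors, filterByExpr with a minimum count of 10, a quasi-likelihood fit (robust) of group alone, and two-sided p-values with Benjamini-Hochberg adjustment over all 18271 genes tested, at a threshold of 0.05. Values written a ± b are a log2 fold change and its standard error, the size of the log2 fold change over the square root of F. P-values measure the spread between these samples, which may be technical. Intervals and floors cover counting error only, since reads are not independent molecules. DESeq2 1.42.0 and limma 3.58.1 were alternatives, beside other scalings and filters, each file alone, the replicate number as a block and each library left out. Named genes were the tested members whose groups did not overlap and, in each family, the 2 with the smallest p and the 1 with most counts (46 genes); further members and list genes are named for contrast, chosen after their values were seen. Members, lists and rules were chosen with earlier results of these data known. The fit was tested on simulated data: at the dispersion of these libraries it recovered almost none of the changes put in, and at a low dispersion nearly all.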

Additional observations from a re-analysis of the deposited data

How the results depend on the processing

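No receptor gene passed the threshold under any of the 18 alternatives. Over all genes the count was 0 except with DESeq2's Wald test, which called 94; its adjusted p was missing for 9 of the 90 receptor genes. The receptor median minus that of all genes was -0.37, and with 1 library left out it lay between -0.72 (without gallein replicate 3) and -0.20 (without control replicate 3). It was -0.13 with the first file alone, -0.14 with at least 10 counts in every sample, -0.25 in limma-voom and -0.64 with summed neuron markers as library size. The median of all genes was 0.07 with TMM factors, -0.07 with upper-quartile factors, -0.49 with library size only and -1.67 with spike-in totals. The number of receptor genes with every gallein sample lower was 11 with TMM factors and 27 with spike-in totals, where it was 29.9% of all genes and 30% of receptors. With library size only it was 15 (16.7%, against 11.3% of all genes). With summed neuron markers as library size, chosen after seeing the data, it was 11 (12.2%, against 5.81% of all genes), of which 6 were shared: CHRM4, CHRNA5, DRD1, gabrr3a, grin3a and htr1b. Of the 6, gabrr3a, grin3a and htr1b had 0 to 5 counts in each gallein library and passed the filter only through the controls. A count of 0 stays 0 under any scaling, so that these genes were shared was largely set in advance. The mean number of receptor genes detected was 82 in gallein and 98.7 in controls at 5 counts, 95.3 and 108 at 1 count, and 60 and 79.7 at 20 counts. Of the 46 genes named by rule, 26 kept the sign of their fold change in every alternative that gave a value, and 11 changed sign with spike-in totals. For the lists of synaptic partner genes, 34 list medians under the alternatives moved by at least the standard deviation between libraries of a group, and 92 did not. With the replicate block 0 receptor genes were called and the median relative to all genes was -0.37; deviations of samples with the same number correlated at 0.07, -0.10 and 0.17, so the numbers were not taken as pairs. Most aminergic receptors had too few counts for a test, and the common coefficient of variation of 0.895 limits what can be called.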
